A study of Mus musculus with 6 samples.

Results

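The genes described here are 10 regulators and early products of fat cell formation, Pparg, Cebpa, Cebpb, Cebpd, Ebf1, Zfp423, Fabp4, Lpl, Adipoq and Dgat2, measured in the mouse embryonic fibroblast line 10T1/2. They were followed through every probe set that the array annotation gives to exactly 1 of them. This gave 21 probe sets, 19 on the Affymetrix MOE430A design and 2 on MOE430B, for 10 of the 18193 genes measured. The cells grew in DMEM with 10% FBS and were taken at 80% confluency with no treatment, and each of 3 RNA samples, called 1, 4 and 5, was run on 1 array of either design. There was 1 group and no contrast between conditions, and the labels name no passage, clone or culture, so p-values measure only the spread between these samples, which may be technical. The labelled purpose was to find genes that these fibroblasts share with stem cells.

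Fat cells form from fibroblast-like precursors in steps. Commitment factors such as Zfp423 and Ebf1 mark cells able to take this path, and C/EBPβ and C/EBPδ are then switched on early by hormones and serum factors. Both raise PPARγ and C/EBPα, which keep each other on and turn on the genes of lipid uptake, storage and hormone secretion. The line 10T1/2 is known for its ability to enter this path after treatment with a demethylating agent or BMP, neither of which the labels list here.

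All signals are the authors' MAS5 intensities on a linear scale, and those of a probe set are given in the order samples 1, 4 and 5. A background limit was set on each array at the 95th percentile of the signals of genes restricted to other tissues. It was 1059, 1298 and 948 on MOE430A, from 158 probe sets of 119 genes. On MOE430B it was 4614, 3983 and 4019, from only 15 probe sets of 10 genes, so it is less certain there. The limit left 33.0%, 28.4% and 35.3% of MOE430A probe sets and 7.65%, 9.84% and 9.61% of MOE430B probe sets above it. As a check of the fibroblast label, 9 of 10 fibroblast markers had a probe set above the limit in limma's test, Fap being the exception, while none of 6 measured adipocyte, 9 macrophage, 8 endothelial, 6 skeletal muscle, 3 B cell and 3 hepatocyte markers had one. Among 4 epithelial markers Epcam had one, 1 of its 2 probe sets, at 31382, 139544 and 29693 on MOE430B.

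Of the 10 fat cell genes, 3 were detected, meaning that a probe set lay above the limit on 3 of 3 arrays. These were Ebf1, Cebpd and Dgat2, and the share over all genes by the same rule was 26.0%. By limma's two-sided test of the log2 distance from the limit, 2 genes had a probe set above it, Ebf1 and Cebpd, beside 22.1% of all genes. In 4 genes, Pparg, Cebpa, Zfp423 and Adipoq, all probe sets were below it, beside 51.0% of all genes. The remaining 4 genes, Cebpb, Dgat2, Fabp4 and Lpl, had no probe set above and at least 1 that the test placed on neither side. The gene shares lie near those over all genes. Of all 21 probe sets, 11 were above the limit on at least 1 array, and by limma 3 were above it, 9 below and 9 on neither side. On MOE430A, over all probe sets, 25.0% were above the limit on 3 of 3 arrays, 40.5% on at least 1, 21.1% above by limma and 51.5% below. On MOE430B those shares were 5.74%, 12.7%, 4.81% and 84.1%. The median distance of the 19 probe sets on MOE430A was -0.999 (log2), against -1.05 over all probe sets of that design. In a bulk RNA sample, fewer cells that express a gene and less of its RNA per cell cannot be told apart.

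**Figure D1:**
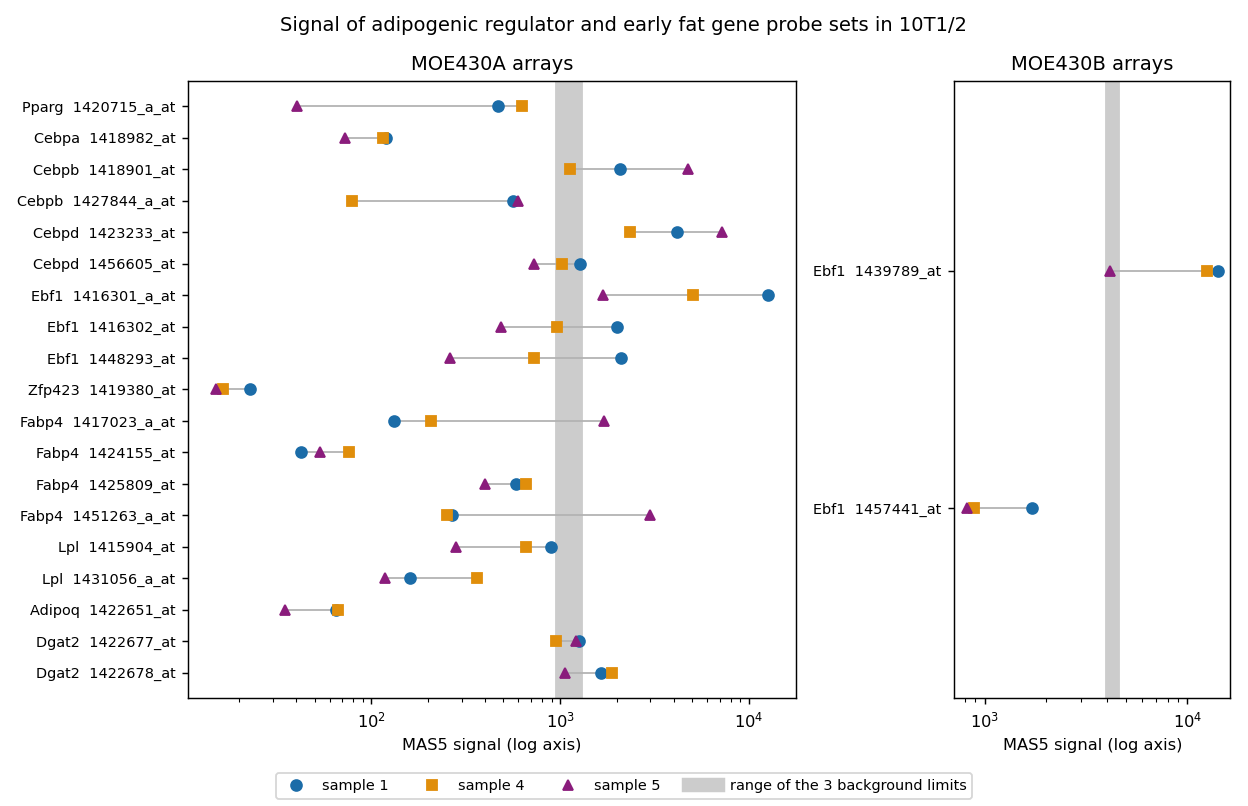
MAS5 signal (log axis) of the 21 probe sets of the 10 genes on MOE430A (left panel) and MOE430B (right panel). Each point is 1 array, the grey line joins the lowest and highest of the 3 samples, and the grey band spans the 3 background limits. At least 1 probe set each of Ebf1, Cebpd and Dgat2 has all 3 points above its arrays' limits, whereas Pparg, Cebpa, Zfp423 and Adipoq have none, with Zfp423 between 14.9 and 22.7.

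Ebf1, an early B cell factor that also acts in fat precursors, was the commitment factor of the pair that was detected. Probe set 1416301_a_at had 12612, 5047 and 1690.0 on MOE430A. It lay above the limit on all 3 arrays, by 2.12 ± 0.48 (log2, SE, adjusted p = 0.00737, limma), with 1.40 when sample 1 and 2.77 when sample 5 was left out. On MOE430B probe set 1439789_at had 14162, 12521 and 4153, and was above that design's limit by 1.11 ± 0.34 (log2, SE, adjusted p = 0.0161, limma). Its value in sample 5 stood only just above the limit of 4019 on that array. The 3 other probe sets of Ebf1 did not pass upwards. Probe set 1416302_at had 2003, 955 and 483, and 1448293_at had 2093, 724 and 260, each above the limit in sample 1 only. The fifth, 1457441_at on MOE430B, had 1709, 890 and 816 and was below the limit by limma (-1.96 ± 0.36 on the log2 scale, SE, adjusted p = 0.00238). Probe sets of Ebf1 therefore disagreed on its presence, and the MOE430B call was lost when sample 1 or sample 4 was left out (adjusted p = 0.0945 and 0.103 by limma). With the limit at the 99th percentile of the background genes, sample 5 lay under it on both designs (limits of 1973 and 6526), so Ebf1 was then not detected, and of these 2 calls only that of 1416301_a_at was kept (adjusted p = 0.0224, against 0.0852 for 1439789_at, limma).

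The 2 Ebf1 probe sets above the limit on 3 of 3 arrays, 1416301_a_at and 1439789_at, ran in the order sample 1, sample 4, sample 5 from high to low. This order was held by 23.8% of such probe sets on MOE430A and 17.3% on MOE430B. The highest sample was 7.46-fold over the lowest for 1416301_a_at and 3.41-fold for 1439789_at. For 1448293_at and 1416302_at, measured above the limit in sample 1 alone, sample 1 was at least 2.21-fold and 2.11-fold higher than sample 5, with values below the limit raised to it. Since each sample had 1 array per design, differences between samples carry no test. As a description, a probe set was counted when 1 sample was more than 2-fold away from both others after such raising. The shares by this rule are of the probe sets above the limit on at least 1 array, 9157 on MOE430A and 2850 on MOE430B. By this rule 1416301_a_at was 2.50-fold higher in sample 1 than in the nearest other sample. The rule was met in sample 1 by 2.09% of these MOE430A probe sets. It was also lower in sample 5 by 2.99-fold, as were 3.32%. On MOE430B, where 1.37% were lower in sample 5, 1439789_at was lower there by 3.01-fold.

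Measures of RNA quality and the summed signal of fibroblast markers also differed between the samples. The ratio of 3′ to 5′ Gapdh probe sets was 24.7, 15.0 and 10.6 on MOE430A and 23.4, 14.0 and 11.5 on MOE430B. The ratio for beta-actin was 17.5, 9.57 and 8.68 on MOE430A and 20.2, 8.23 and 10.8 on MOE430B. The Gapdh ratios on both designs and the beta-actin ratio on MOE430A were in the order of Ebf1. The summed MOE430A signal of the 10 fibroblast markers was 469669, 533846 and 253461. Their part in the result was not tested. The MOE430A array of sample 5 was run on another fluidics station than the other 2, and the 3 MOE430B arrays on 1 station, whose part was not tested either. The MOE430A probe sets whose 3 log2 deviations were closest to those of 1416301_a_at were those of Mrgprf (Euclidean distance 0.09), Socs2 (0.14) and Wnk4 (0.16), among 8371 compared. Mrgprf had 3593, 1464 and 450. For 1416302_at they were Trim30a, Marcks and Penk, and for 1448293_at Wnk4, Adamts1 and Capn6, at most 0.09 away. This likeness covers 3 samples only, and signals under the limit entered as deposited.

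**Figure D2:**
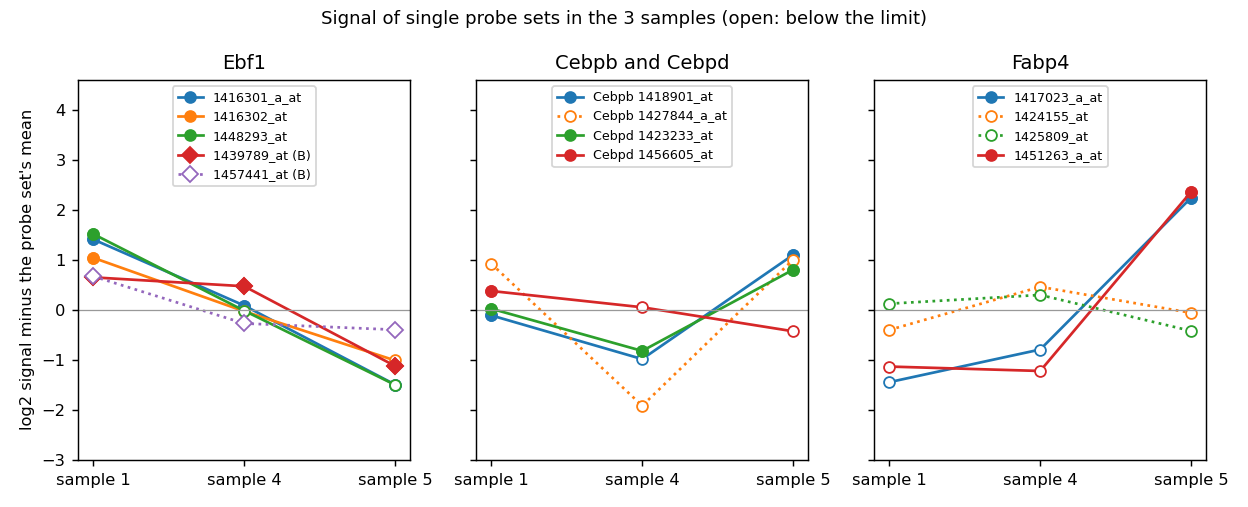
Log2 signal minus the probe set's own mean (vertical axis) in samples 1, 4 and 5 for the probe sets of Ebf1, of Cebpb and Cebpd, and of Fabp4. Circles are MOE430A, diamonds MOE430B, filled points lie above and open points below the array's limit, and dotted lines mark probe sets with no point above it. The 2 Ebf1 lines with 3 filled points are highest in sample 1 and lowest in sample 5, Cebpb 1418901_at and Cebpd 1423233_at are highest in sample 5, and 2 of the 4 Fabp4 probe sets have a filled point, in sample 5.

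Zfp423, a zinc finger factor that marks committed fat precursors, was far below the limit. Its only probe set, 1419380_at, had 22.7, 16.3 and 14.9, below the limit (-5.95 ± 0.44 on the log2 scale, SE, adjusted p = 0.000118, limma). Signals below the limit give no order of samples.

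Cebpd, the early C/EBP factor best known for its answer to glucocorticoid and cytokines, was the second gene above the limit. Probe set 1423233_at had 4171, 2326 and 7155, above the limit on all 3 arrays by 1.91 ± 0.39 (log2, SE, adjusted p = 0.00478, limma). Its level was highest in sample 5 and lowest in sample 4, a 3.08-fold range. The order sample 5, sample 1, sample 4 was held by 12.5% of MOE430A probe sets above the limit on 3 of 3 arrays. The other probe set of Cebpd, 1456605_at, had 1274, 1017 and 729. It was above the limit in sample 1 only and was placed on neither side (adjusted p = 0.633, limma).

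Cebpb, the early C/EBP factor raised by cyclic AMP signals, lay around the limit. Probe set 1418901_at had 2059, 1125 and 4756, above the limit in samples 1 and 5 and below it in sample 4. Its distance of 1.03 ± 0.46 (log2, SE) did not pass (adjusted p = 0.0790, limma). Without sample 4 the distance was 1.64, with an adjusted p of 0.0293 by limma, and without sample 5 it was 0.38. The distance passed with the limit at the 90th percentile (adjusted p = 0.0276, limma) and from other gene families (adjusted p = 0.0303, limma). At the 99th percentile it did not (adjusted p = 0.444, limma). Probe set 1427844_a_at had 564, 79.1 and 597, below the limit on each array (-1.87 ± 0.70, SE, adjusted p = 0.0465, limma). This call was lost without sample 1 or without sample 4 (adjusted p = 0.0726 and 0.144, limma). It was also lost with the limit at the 90th percentile (adjusted p = 0.109, limma) and from other gene families (adjusted p = 0.114, limma). A constant prior variance lost it too (adjusted p = 0.0675, limma). The 2 Cebpb probe sets thus differed in call. By the 2-fold rule Cebpb 1418901_at was higher in sample 5 than in both others, 2.31-fold over sample 1. Of MOE430A probe sets above the limit on at least 1 array, 3.57% were higher in sample 5. Closest to its 3 deviations were Gch1 (718, 400 and 1657), Nifk and Gnl3, at distances of 0.02, 0.03 and 0.05.

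Because cyclic AMP signals act on Cebpb through CREB, the stretch before its transcription start was searched for the CREB motif core TGACG on both strands. RefSeq places these 250 bases at chr2:167688665-167688914 on the plus strand of GRCm38.p6. The capitals mark 3 matches, which begin 180, 53 and 7 bases before the start, the first of them as its reverse complement CGTCA.
Cebpb: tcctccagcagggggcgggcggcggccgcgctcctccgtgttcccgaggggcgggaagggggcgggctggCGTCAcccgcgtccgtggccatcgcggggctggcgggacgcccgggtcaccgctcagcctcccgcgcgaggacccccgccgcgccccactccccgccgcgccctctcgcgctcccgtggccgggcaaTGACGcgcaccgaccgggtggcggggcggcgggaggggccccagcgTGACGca
At least 1 such match stood in 17.8% of 32851 RefSeq promoter stretches of the same length, so a match is a description and not a binding site. The stretch has a GC content of 81.6%.

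Pparg, the nuclear receptor that drives fat cell formation, was below the limit. Its only probe set, 1420715_a_at, had 466, 630 and 40.4, below the limit (-2.26 ± 0.74 on the log2 scale, SE, adjusted p = 0.0297, limma). No sample reached its array's limit. The call was lost when sample 1 or sample 4 was left out (adjusted p = 0.0516 and 0.0551, limma), with distances of -2.80 and -2.87, and was kept without sample 5 at a distance of -1.11. It was also lost with the limit at the 90th percentile (adjusted p = 0.0894, limma) and with the limit from other gene families (adjusted p = 0.0878, limma). Cebpa, which with PPARγ holds the mature fat cell state, had 120, 115 and 72.8 on 1418982_at. It was below the limit (-3.45 ± 0.46 on the log2 scale, SE, adjusted p = 0.000909, limma).

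C/EBPβ and C/EBPδ are known to act on Pparg through C/EBP sites, so the 3 Pparg promoter stretches of RefSeq were searched for TTGCNNAA on both strands. Start 3 of the 3 alone held matches, and it is shown because its gene stayed below the limit in the samples with Cebpd above it. It lies at chr6:115421816-115422065 on the plus strand of GRCm38.p6, with the 2 matches in capitals, beginning 215 and 16 bases before the start, the second as a reverse complement.
Pparg, start 3: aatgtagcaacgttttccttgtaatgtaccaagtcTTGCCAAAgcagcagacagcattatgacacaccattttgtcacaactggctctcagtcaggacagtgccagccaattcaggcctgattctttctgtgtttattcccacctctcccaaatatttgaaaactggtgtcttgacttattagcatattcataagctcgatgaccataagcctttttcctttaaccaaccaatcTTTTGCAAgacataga
This motif stood in 9.56% of the 32851 stretches. Across the 10 stretches found for 6 of the genes (Pparg, Cebpa, Cebpb, Ebf1, Zfp423 and Adipoq), 1 more match lay 131 bases before the first start of Zfp423.

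Fabp4, the fatty acid carrier of fat cells that macrophages and endothelial cells also make, was above the limit in sample 5 only, and on 2 of its 4 probe sets. Probe set 1451263_a_at had 266, 250 and 2991, so sample 5 was at least 2.83-fold over sample 1 raised to its limit. Probe set 1417023_a_at had 132, 208 and 1698, at least 1.60-fold over sample 1 by the same rule. Neither was above or below the limit over the 3 samples (adjusted p = 0.315 and 0.0949, limma). The other 2 did not share the peak in sample 5. Probe set 1424155_at had 42.1, 76.5 and 53.4, and 1425809_at had 583, 658 and 399. Both were below the limit (adjusted p = 0.000434 and 0.0222, limma), the call of 1425809_at being lost without any 1 sample (adjusted p from 0.0547 to 0.0880). That call was also lost with the limit at the 90th percentile or from other gene families (adjusted p = 0.124 and 0.134, limma). By the 2-fold rule 1451263_a_at was higher in sample 5 by 2.30-fold over the nearest raised value, a call lost with the limit at the 99th percentile, and 1417023_a_at missed the rule at 1.31-fold.

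Markers of the other cell types that make Fabp4 were mostly under the limit, with 2 of 11 macrophage and 1 of 12 endothelial probe sets of MOE430A above it on any array. The summed MOE430A signal of 9 macrophage markers was 5522, 4963 and 5292, with Lyz2 the one above the limit in sample 5 alone (400, 390 and 1168). The summed signal of 8 endothelial markers was 6066, 5507 and 4098. That of the adipocyte markers, Adipoq among them, was 2408.5, 3075 and 1700.5. The part of such cells in the Fabp4 signal was not tested. The MOE430A array of sample 5 was the one run on the other station. Fabp4, Cebpb, Cebpd and every other gene but Ebf1 were followed on MOE430A alone, so for them station and sample cannot be told apart. Closest to 1451263_a_at in their 3 deviations were Nefl (255, 222 and 2745), Hmga2 (4597, 4448 and 57046) and Rrp9. For 1417023_a_at they were Hbegf, Rassf1 and Nop56. For both, samples 1 and 4 enter with signals under the limit.

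Lpl, the lipase that frees fatty acids from circulating lipoproteins, stayed below the limit on all arrays. Probe set 1415904_at had 889, 658 and 279, but its distance of -0.999 ± 0.39 (log2, SE) did not pass (adjusted p = 0.0521, limma). By limma it was below at the 99th percentile (adjusted p = 0.0048) and with quantile normalization (0.0497). The same held without probe sets ending in _s_at or _x_at (0.0340) and without sample 1 (0.0439). It was not called at the 90th percentile (0.231), with gene families (0.232), without sample 4 (0.163) or without sample 5 (0.176). Probe set 1431056_a_at had 160, 363 and 118 and was below the limit (-2.52 ± 0.46 on the log2 scale, SE, adjusted p = 0.00307, limma).

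Adipoq, the adiponectin gene and a product of mature fat cells, had 65.0, 66.8 and 34.9 on 1422651_at. It was below the limit (-4.36 ± 0.48 on the log2 scale, SE, adjusted p = 0.000426, limma).

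Dgat2, an enzyme of the last step of triglyceride synthesis, lay close to the limit. Probe set 1422678_at had 1633, 1869 and 1057, above the limit on 3 of 3 arrays. Its distance of 0.44 ± 0.24 (log2, SE) was within the spread between samples (adjusted p = 0.144, limma). Probe set 1422677_at had 1254, 945 and 1206, above the limit in samples 1 and 5, with a distance of 0.04 ± 0.28 (adjusted p = 0.893, limma). The highest sample was 1.77-fold over the lowest for 1422678_at and 1.33-fold for 1422677_at. The median range was 1.73-fold over MOE430A probe sets above the limit on at least 1 array. With the limit at the 99th percentile of the background genes the distance of 1422678_at was -0.29. At the 90th percentile it was 0.90 and passed (adjusted p = 0.0164, limma). With the limit from other gene families it was 0.91 and passed as well (adjusted p = 0.0165, limma). The detection of Dgat2 thus rests on the choice of limit.

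**Figure D3:**
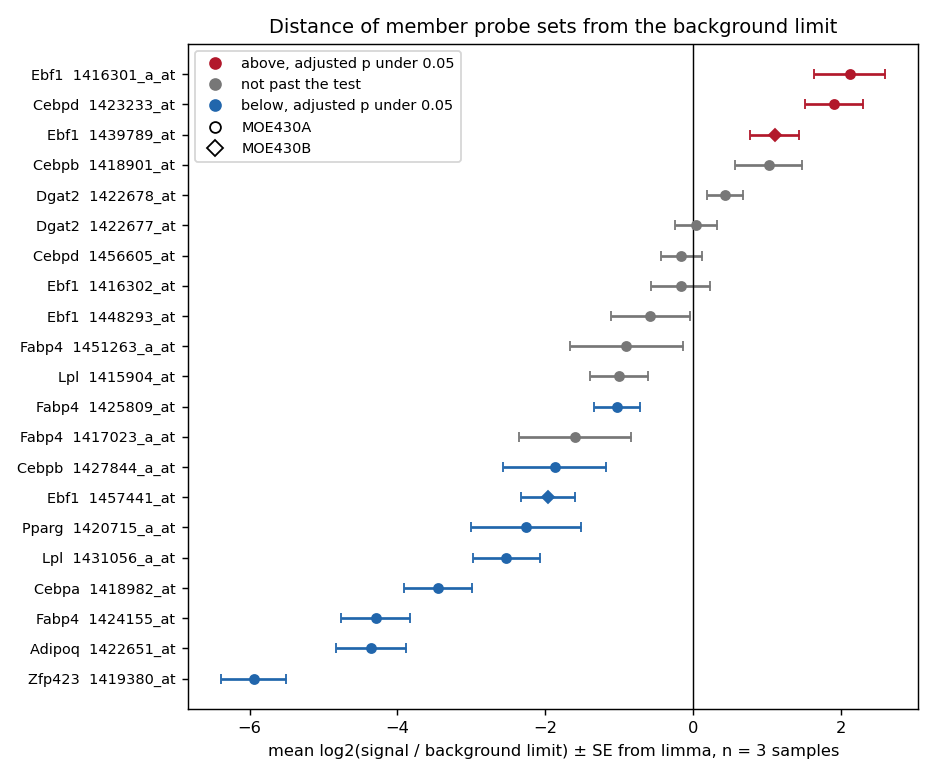
Mean log2 ratio of signal to background limit (horizontal axis, 3 samples, bars are SE from limma) for the 21 probe sets, ordered by the mean. Red marks probe sets above and blue those below the limit at an adjusted p under 0.05, grey those past neither, circles MOE430A and diamonds MOE430B. Probe sets of the same gene lie apart in Ebf1, Cebpb, Cebpd and Fabp4, and the 3 red ones belong to Ebf1 and Cebpd.

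Among the 10 probe sets on MOE430A above the limit on at least 1 array, 1 had a range over 4-fold between samples with values below the limit raised to it, Ebf1 1416301_a_at, beside 3.55% of such probe sets on that design. The 10 genes did not share 1 highest sample: it was sample 1 for Ebf1 1416301_a_at, sample 5 for Cebpd 1423233_at, Cebpb 1418901_at and 2 Fabp4 probe sets, and sample 4 for Dgat2 1422678_at. In the deposited signals Cebpd 1456605_at and Dgat2 1422677_at were highest in sample 1 (1274 and 1254), sample 4 being below its limit of 1298. With values below the limit raised to it, sample 4 was instead 1.02-fold and 1.04-fold over sample 1. The highest sample of these 2 probe sets is thus not settled.

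The wider pathway was read from 8 lists of 116 genes, of which 108 were measured. A probe set above the limit by limma was found for 39 of them, 44 were detected, and 35 had all probe sets below, beside 22.1%, 26.0% and 51.0% of all genes. Of 17 other factors that promote fat cell formation, 4 had a probe set above and 8 had all below. Klf4, which acts before Cebpb, had 5667, 2449 and 4562 and was above by 1.87 ± 0.33 (log2, SE, adjusted p = 0.00294, limma). Creb1, the cyclic AMP factor that acts on Cebpb, had 9426, 10692 and 11215 on MOE430B and was above, with 2 of its 6 probe sets. Both were on MOE430B, and its MOE430A probe sets were above the limit on no array. Srebf1, a factor of lipid synthesis (3685, 2498 and 2650.3), and Cebpg, a C/EBP family member without a strong activating part (2542, 1927 and 3019.9), were above too. For Klf4 this held for 1 of 2 probe sets and for Cebpg for 1 of 3. Klf15 had 39.5, 39.2 and 18.6 and was below, and Klf5 had 770, 1169 and 2203 and was on neither side.

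Of 18 factors that restrain fat cell formation, 3 had a probe set above and 3 all below. Gata2, which holds precursors back, had 5068, 3615 and 3656, above by 1.89 ± 0.24 (log2, SE, adjusted p = 0.000754, limma). Trib2 (2946, 3826 and 1605), a pseudokinase that lowers C/EBP proteins, and Id3 (3788, 3083 and 1069), an inhibitor of basic helix-loop-helix factors, were above as well, both lowest in sample 5. Only 1 of 2 probe sets of Gata2 and 1 of 3 of Trib2 were above. Dlk1, the surface protein lost as fat cells form, had 650, 509 and 539 and was below the limit, as was Gata3 at 103, 91.9 and 38.3. Of 11 measured partners and cofactors of PPARγ, 3 had a probe set above, Med1 (1 of 7), Crebbp (2 of 4) and Tle3 (1 of 4), and 2 all below. Rxra, the partner with which PPARγ binds DNA, had 2624, 1293 and 948 and was on neither side (0.43 ± 0.33, SE, adjusted p = 0.269, limma). Rxrb (3822, 1182 and 1574) was on neither side too, and Rxrg (432, 456 and 85.9) was below the limit.

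Signal inputs had a probe set above in 11 of 16 genes and all below in 4. These 16 genes had 29 probe sets on MOE430A and 15 on MOE430B. Over all 18193 genes, 20393 and 14674 probe sets named 1 gene. The insulin receptor gene Insr (5811, 9694 and 11053 on MOE430B), the IGF1 receptor gene Igf1r (15522, 14088 and 13053 on MOE430B) and Irs1, the docking protein of both (6709.9, 4506 and 2322), were above. So were the BMP receptor gene Bmpr2 (31703, 25415 and 21791 on MOE430B), Smad4, Akt2 and Pdgfra, a receptor that marks fat precursors (8198, 4006 and 8560.1). Probe sets above were 1 of 5 for Igf1r, 2 of 3 for Smad4, and 1 of 3 each for Insr, Bmpr2, Akt2 and Pdgfra.

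Genes of fatty acid supply and lipogenesis had a probe set above in 8 of 15 and all below in 6. Fabp5, a carrier of the Fabp4 family, had 9102, 13418 and 21090.4, above by 3.65 ± 0.32 (log2, SE, adjusted p = 0.000194, limma). Acly (18803, 15028 and 23853), Scd2 (8637, 13324 and 15759), Elovl6 (5257, 3056 and 3549) and Scd1 were above, enzymes of fatty acid synthesis and desaturation. This held for 1 of 2 probe sets each of Fabp5 and Scd1, 2 of 6 of Acly, 2 of 3 of Scd2 and 1 of 3 of Elovl6. The fatty acid receptor gene Cd36 (328, 294 and 154) and the muscle carrier gene Fabp3 (378, 464 and 195) were below. Lipid droplet and storage genes had a probe set above in 4 of 15 and all below in 6. Plin2, a droplet coat protein made in many cell types, had 16526, 15851 and 36564, above by 4.28 ± 0.36 (log2, SE, adjusted p = 0.000178, limma). Dgat1, which does the same step as Dgat2, had 2814, 3117 and 2713 and was above the limit, as were Gpam (10203, 5763 and 3982) and Plin3. In Dgat1 and Gpam 1 of 2 probe sets each was above. Cidec, a droplet protein of fat cells, was below at 31.5, 43.4 and 136.

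Of 8 measured partners of lipoprotein lipase, 4 had a probe set above and 3 all below. Angptl4, its inhibitor and a PPAR target, had 3314, 1538 and 4846, above by 1.42 ± 0.40 (log2, SE, adjusted p = 0.0168, limma). Sel1l, which helps the enzyme leave the endoplasmic reticulum (15652, 23732 and 26708 on MOE430B), Lrp1 and Vldlr were above too. This held for 1 of 5 probe sets of Sel1l, 1 of 2 each of Angptl4 and Lrp1 and 1 of 6 of Vldlr. The capillary anchor gene Gpihbp1 had 4977, 5668 and 3886 on MOE430B and was on neither side. Of 8 measured genes of fat cell secretion and its receptors, the adiponectin receptor genes Adipor1 (4791, 5675 and 5371) and Adipor2 (1838, 1834 and 3966) were above, and 3 had all probe sets below, among them the leptin gene Lep at 65.8, 41.0 and 35.6. Above were 2 of 3 probe sets of Adipor1 and 1 of 2 of Adipor2.

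**Figure D4:**
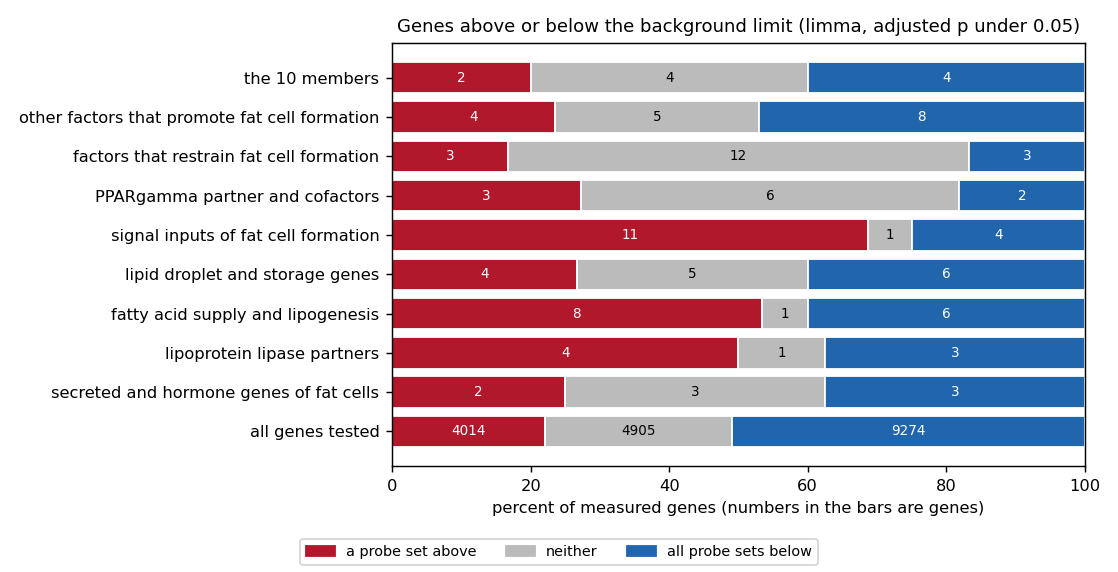
Share of measured genes (horizontal axis, percent) with a probe set above the background limit, with neither, or with all probe sets below it by limma, for the 10 fat cell genes, 8 pathway lists and all genes tested. The numbers in the bars are genes. Signal inputs and lipogenesis have 11 of 16 and 8 of 15 genes above, the 10 fat cell genes 2, and all genes 4014 of 18193. The shares are not adjusted for the number of probe sets per gene.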

How the data were processed

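The authors deposited 1 MAS5 signal intensity per probe set and array on a linear scale (tool as in the submitters' processing notes; the MAS5 version is not given in the labels). The mean after trimming 2% at each end was close to 1500 on each of the 6 arrays, so arrays are compared after the authors' scaling, and their number limits the precision. The deposited run settings, other text and scores per the file headers, served for the station, chip lot and hybridisation day, each design having 1 lot and 1 day. No detection calls were used.

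The 10 members and all gene lists were chosen with earlier results of these data known. Of 22690 MOE430A and 22575 MOE430B probe sets, 20393 and 14674 named 1 gene. The background limit was the 95th percentile of an own list of 135 tissue-restricted genes, 121 of them measured. An intercept-only limma model (3.58.1, R 4.3.3, eBayes with trend, checked on simulated data) tested log2 of the signal, set to at least 1, minus log2 of the limit. P-values were adjusted by Benjamini-Hochberg over all probe sets of a design without its 64 controls; the limit's own error is not included. Genes of a list were named from the first 3 written and the 4 further genes farthest above the limit, though not all of these are named. Each is given by its probe set of largest distance. Fap and Lyz2 were named besides. The 3 nearest genes by deviation were named for members with a range over 4-fold in the deposited signals. Promoter stretches came from RefSeq (GRCm38.p6). Alternatives are given in the closing section.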

Additional observations from a re-analysis of the deposited data

How the results depend on the processing

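With the 90th percentile, and likewise with a limit from other tissue-restricted gene families, 4 instead of 2 MOE430A probe sets of the 10 genes were above, 5 instead of 8 below, and 3 instead of 1 higher in sample 1. With the 99th percentile 1 of the genes, Cebpd, was detected (3123 of all genes), 14 MOE430A probe sets were below, 1 was higher in sample 5, and on MOE430B 0 were above (692 of all) and 0 lower in sample 5. A constant prior variance left 0 above on MOE430B (706 of all). With no filter on dim probe sets 3 were higher in sample 1 and 4 lower in sample 5. Leaving out 1 sample gave 5 to 9 MOE430A probe sets below, 1 to 3 higher in sample 1, 1 to 3 lower in sample 5, and 0 to 1 above on MOE430B. The distances (log2) that changed sign were, at the 90th percentile, 0.30 for Ebf1 1416302_at, 0.31 for Cebpd 1456605_at, 0.40 for Kdr and 0.22 for Krt8, and with gene families 0.31, 0.32, 0.41 and 0.23. At the 99th they were -0.68 and -0.29 for Dgat2 1422677_at and 1422678_at, -0.60 for Csf1r, -0.29 for Rxra, -0.52 for Klf5 and -0.18 for Gpihbp1. Without probe sets ending in _s_at or _x_at Dgat2 1422677_at was at -0.046. With 1 sample left out, Dgat2 1422677_at lay between -0.11 and 0.30, Rxra between -0.0023 and 0.66, Kdr between -0.35 and 0.13, Ebf1 1416302_at between -0.71 and 0.24, Ebf1 1448293_at between -1.36 and 0.071 and Klf5 between -0.30 and 0.53. The cause was not tested. Of 210 distances of the 21 probe sets under 10 alternatives, 166 kept sign and side. Quantile normalization and signals set to at least 64 turned no sign. No paired analysis was possible because there was 1 group and no comparison between groups.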
